A study of Saccharomyces cerevisiae with 68 samples.

Results

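The 8 yeast genes described here make, trim and break down glycogen, and they were taken from the value table by their systematic names. They are GLG1 (YKR058W), GLG2 (YJL137C), GSY1 (YFR015C), GSY2 (YLR258W), GLC3 (YEL011W), GAC1 (YOR178C), GPH1 (YPR160W) and GDB1 (YPR184W), 8 of the 6297 open reading frames in the table. The study measured RNA of 5 strains of Saccharomyces cerevisiae on 68 microarrays of 2 colours, on which a test RNA and a reference RNA compete for the same spots. DBY8268, which the series' design text gives as the S288c reference, K9, M22, RM11-1a and YPS163 were grown in log phase in the rich medium YPD at 25C and brought to 37C by prewarmed medium. RNA was taken at 5, 15, 30, 45, 60 and 120 min in 2 series per strain, which gave 60 arrays, each against RNA of the same strain at 25C, and on 8 more arrays each of the other 4 strains was set against DBY8268 at 25C. Each strain stands for 1 genotype, and the labels give neither ploidy nor genotype beyond the strain name.

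Glycogen is a branched glucose polymer that budding yeast stores as a carbohydrate reserve. A self-glucosylating primer protein starts each chain, glycogen synthase lengthens it from UDP-glucose and a branching enzyme adds the branch points. Glycogen phosphorylase and a debranching enzyme release the glucose again, and both synthase and phosphorylase are controlled by phosphorylation as well as by the amount of their mRNA. Many genes of glycogen metabolism belong to the general stress response of yeast and are known to be induced by heat, starvation and other stresses.

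All values below are log2 ratios as deposited, so that 1 stands for 2-fold. A positive value in a time course means more RNA after heat than in the same strain at 25C. Tests are those of limma with p-values adjusted by Benjamini-Hochberg over all genes of a comparison, and a gene was called at an adjusted p under 0.05. A printed mean over strains is the fitted value with the dye effect removed, so it can differ slightly from the mean of the arrays.

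The members were not measured equally well. Of the 68 arrays, GLC3 had a value on 65, GSY2 on 63, GLG2 on 60, GSY1 on 59, GDB1 on 56, GLG1 on 48, GPH1 on 46 and GAC1 on 36, against 64 for the median gene. GSY2 and GLC3 alone had a value for every strain and time. GPH1 had a value on 1 of the 12 YPS163 time-course arrays and on neither YPS163 array at 25C, and in K9 it was measured in series 1 only, so its means are over DBY8268, K9, M22 and RM11-1a. GAC1 had no value at 25C, and GLG1 had none in series 1 of M22. The arrays of the time courses held 3418 to 6098 genes, and whether missing values go with the level of a gene was not tested.

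The series of a strain were not interchangeable. In RM11-1a, series 2 was above series 1 in 38 of 41 pairs of member and time, with a median difference of 0.78. The signed median difference of all genes, averaged over the times, was 0.09. It also covers genes lowered by heat, so it is no measure for raised genes alone. In YPS163 series 2 was higher in 5 of 20 pairs, and the widest gap there was that of GSY1 at 5 min, with 5.79 in series 1 and 2.09 in series 2. In DBY8268 series 2 was higher in 21 of 42 pairs. In 4 of the 5 strains the dyes were swapped between the series, so series and dye orientation cannot be told apart within them, and K9 had no swap. At 25C LEU2 and URA3 were at −5.69 and −6.28 in RM11-1a, a strain known to lack both genes, and ASP3-1, an asparaginase gene of S288c, lay between −5.21 and −6.85 in the 4 strains set against DBY8268. These genes were used to set the direction of the 25C ratios, so their sign is no separate check. The labels of K9, M22 and YPS163 were not checked against each other.

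Heat shock raised the mRNA of most of the members tested within minutes, for synthesis and for breakdown alike. Over the mean of the 5 strains, 6 of 7 members tested were called higher at 5 min and 5 of 5 at 15 min, with a median of 2.55 and 3.12. Among all genes tested, 31.9% were called higher at 5 min and 39.3% at 15 min. Later the values were smaller: 3 of 4 members were called higher at 30 min (median 0.96), 4 of 5 at 45 min (0.67), 4 of 6 at 60 min (0.57) and 4 of 6 at 120 min (0.64). The shares of all genes called higher at these times were 40.4%, 34%, 25.6% and 31%, and the median of all genes stood above 0 by 0.12 at 30 min and 0.11 at 45 min. No member was called lower at any time. Over the 4 strains other than YPS163, a set added after seeing the data so that GPH1 could be tested, 7 of 8 members were called higher at 5 min (29.7% of all genes), 6 of 6 at 15 min (36.4%), 4 of 6 at 30 min (36.8%), 5 of 7 at 45 min (28.8%), 6 of 7 at 60 min (26%) and 6 of 8 at 120 min (26.5%). Some of these calls were near the threshold. GLG1 at 15 min (limma, adjusted p = 0.0409) was lost without series 1 of DBY8268 (0.247), series 2 of K9 (0.127) or series 2 of RM11-1a (0.132). GLC3 at 45 min (0.0484) and 60 min (0.0308) was also lost without any of several single series.

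**Figure D1:**
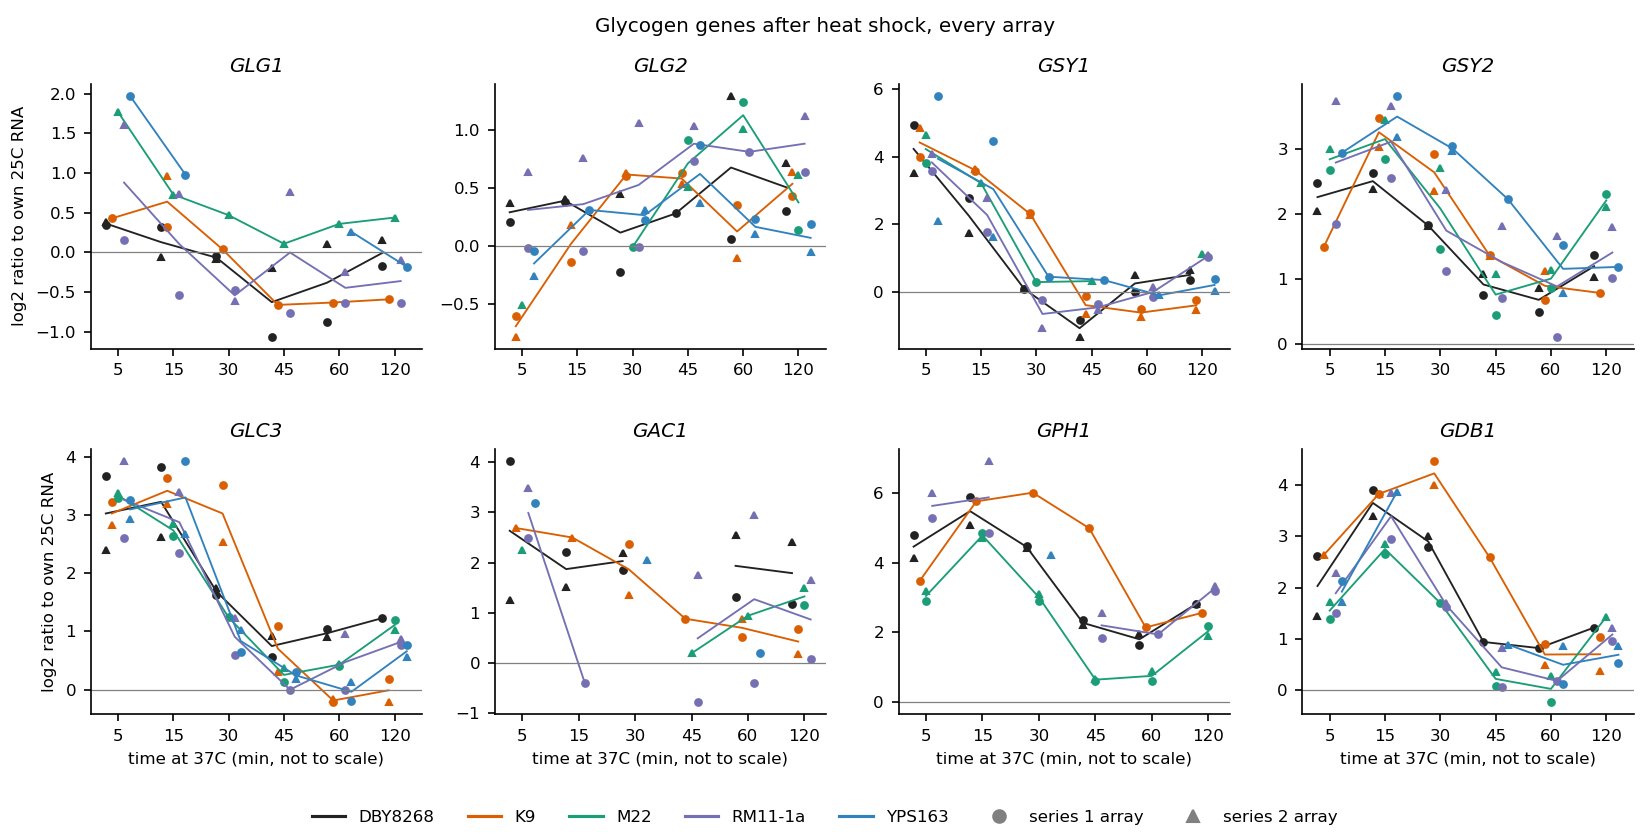
Log2 ratio to the same strain's 25C RNA (vertical axis) against time at 37C in min (horizontal axis, not to scale) for the 8 genes, 1 panel each with its own vertical scale; circles are series 1, triangles series 2, and lines join the mean of the arrays of each strain. GSY1 is highest at 5 min, GPH1 and GDB1 at 15 or 30 min, and GLG2 stays between −0.78 and 1.29.

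At 5 min the primer genes had the lowest means of the members tested. GLG1 and GLG2 code for the glycogenin-like proteins that start a glycogen chain. At 5 min GLG1 was above 0 on all 7 arrays with a value (lowest 0.16, median 0.43, highest 1.97), and its mean of the 5 strains was 1.14 (SE 0.17, adjusted p = 1.65e-05). The high GLG1 values came from YPS163 (1.97), M22 (1.77) and series 2 of RM11-1a (1.60), while DBY8268 had 0.34 and 0.39, K9 0.43 and series 1 of RM11-1a 0.16. GLG1 was at 0.57 at 15 min (SE 0.16, adjusted p = 0.00369), and at 120 min it was above 0 on 2 of 7 arrays, with a mean of −0.08 (adjusted p = 0.722).

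GLG2 did not pass the test at 5 min, where it was above 0 on 3 of 9 arrays (mean −0.15, SE 0.11, adjusted p = 0.238). It was called higher from 30 min on, with 0.35 at 30 min (SE 0.11, adjusted p = 0.0074), 0.67 at 45 min (adjusted p = 1.64e-05), 0.63 at 60 min and 0.50 at 120 min (SE 0.10, adjusted p = 0.000204). At 45 min all 9 arrays with a value lay above 0, between 0.28 and 1.03, and every strain was represented. The call at 30 min was lost without series 2 of RM11-1a (adjusted p = 0.0979). In fitted strain means GLG2 was highest at 60 min in DBY8268, M22 and RM11-1a, at 45 min in YPS163 and at 30 min in K9.

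Both synthase genes rose early. GSY1 and GSY2 code for the 2 isoforms of glycogen synthase, which adds glucose from UDP-glucose to the growing chain. GSY1 had the highest mean over 5 strains of any member at 5 min, 4.08 (SE 0.23, adjusted p = 3.2e-14), from 10 arrays between 2.09 and 5.79. By array it was at 4.94 and 3.52 in DBY8268, 3.98 and 4.86 in K9, 3.82 and 4.63 in M22, 3.57 and 4.09 in RM11-1a, and 5.79 and 2.09 in YPS163. Both the highest and the lowest of these values were thus in YPS163, and 5 min was the highest time in each strain. GSY1 was at 2.88 at 15 min (SE 0.25, adjusted p = 9.39e-11), at 0.37 at 30 min (SE 0.28, adjusted p = 0.264, and 0.0148 without series 2 of YPS163) and at −0.29 at 45 min (adjusted p = 0.402).

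At 120 min GSY1 was above 0 on 7 of 9 arrays, between −0.53 and 1.13, and its mean did not pass (limma, adjusted p = 0.0996). GSY2 remained called at every time. It was at 2.55 at 5 min (SE 0.18), 3.14 at 15 min (SE 0.15, adjusted p = 1.61e-17), 2.30 at 30 min, 1.39 at 45 min, 0.97 at 60 min (SE 0.15, adjusted p = 5.72e-06) and 1.44 at 120 min (SE 0.18, adjusted p = 1.84e-07). At 15 min the arrays read 2.63 and 2.38 in DBY8268, 3.48 and 3.03 in K9, 2.85 and 3.45 in M22, 2.56 and 3.66 in RM11-1a, and 3.81 and 3.18 in YPS163. Every GSY2 value of the time courses was above 0, the lowest being 0.12 in series 1 of RM11-1a at 60 min, and 15 min was the highest time in all 5 strains. GSY1 and GSY2 are paralogues, as are GLG1 and GLG2, the probes are not described in the sources used here, and cross-hybridisation was not tested.

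The branching enzyme gene GLC3 was close to its top from the start. GLC3 stood at 3.15 at 5 min (SE 0.14, adjusted p = 3.65e-18) and 3.12 at 15 min (SE 0.14, adjusted p = 1.36e-18), with 10 of 10 arrays above 2 at both times (2.39 to 3.92, then 2.35 to 3.92). It was at 1.55 at 30 min (SE 0.16, adjusted p = 6.94e-10), 0.40 at 45 min (adjusted p = 0.0355), 0.34 at 60 min (adjusted p = 0.0576) and 0.77 at 120 min (SE 0.16, adjusted p = 2e-04). At 60 min only 6 of 10 arrays were above 0, with DBY8268 at 1.04 and 0.90 and K9 at −0.21 and −0.16. The call at 45 min was lost without series 1 of K9 (adjusted p = 0.125), series 1 or 2 of M22 (0.0676 and 0.107) or series 1 of YPS163 (0.0586).

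GAC1, which codes for a subunit that targets the protein phosphatase Glc7 to glycogen synthase and so favours its active form, was the least often measured member. At 5 min it read 4.02 and 1.25 in DBY8268, 2.69 in K9, 2.25 in M22, 2.50 and 3.48 in RM11-1a and 3.19 in YPS163. All 7 values were thus above 1, and the pair from DBY8268 held both the highest and the lowest. The mean of the 5 strains was 2.83 (SE 0.38, adjusted p = 4.89e-06), and at 60 min, the only other time with a value in all strains, it was 1.09 (SE 0.36, adjusted p = 0.0202). The call at 60 min was lost without series 2 of K9 (adjusted p = 0.0589) or series 2 of RM11-1a (0.114).

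Both breakdown genes rose, and of the times with a mean over the strains, which leaves out 30 min, 15 min was the highest. In K9 both were higher at 30 min than at 15 min, with fitted values of 6.09 and 4.33, that of GPH1 from 1 array. Of the other strains only DBY8268 and M22 had values of both genes at both times, and there both were higher at 15 min. GPH1 codes for glycogen phosphorylase, which releases glucose 1-phosphate from the chain ends, and GDB1 for the debranching enzyme, which clears the branch points that stop the phosphorylase. At 15 min GPH1 read 5.88 and 5.08 in DBY8268, 5.76 in K9, 4.85 and 4.71 in M22, and 4.84 and 6.91 in RM11-1a. All 7 values exceeded the highest value of any other member at that time, 4.45 for GSY1 in series 1 of YPS163. The 4-strain mean of GPH1 was 4.17 at 5 min (SE 0.17), 5.49 at 15 min (SE 0.17, adjusted p = 1.03e-16), 2.55 at 45 min, 1.70 at 60 min (SE 0.19, adjusted p = 6.37e-07) and 2.69 at 120 min (SE 0.17, adjusted p = 3.31e-10). At 120 min its 7 arrays lay between 1.90 and 3.33. The only YPS163 value, 4.23 at 30 min, lay between those of M22 (2.91 and 3.10) and DBY8268 (4.49 and 4.42).

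GDB1 had lower ratios. Its mean of 5 strains was 2.03 at 5 min (SE 0.13, adjusted p = 2.22e-12), 3.50 at 15 min (SE 0.13, adjusted p = 2.14e-17), 1.04 at 45 min, 0.51 at 60 min (SE 0.14, adjusted p = 0.00598) and 1.05 at 120 min (SE 0.14, adjusted p = 1.86e-06). At 15 min its arrays read 3.90 and 3.40 in DBY8268, 3.82 and 3.83 in K9, 2.65 and 2.85 in M22, 2.94 and 3.84 in RM11-1a, and 3.87 in YPS163. The 2 M22 values were the lowest of the 9. M22 was below the mean of the other 4 strains at 15 min by a difference of −0.93 (SE 0.30, adjusted p = 0.0413) and at 45 min by −1.02 (SE 0.31, adjusted p = 0.036), and neither call held without either M22 array (adjusted p = 0.234 and 0.34 at 15 min, 0.282 and 0.295 at 45 min).

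**Figure D2:**
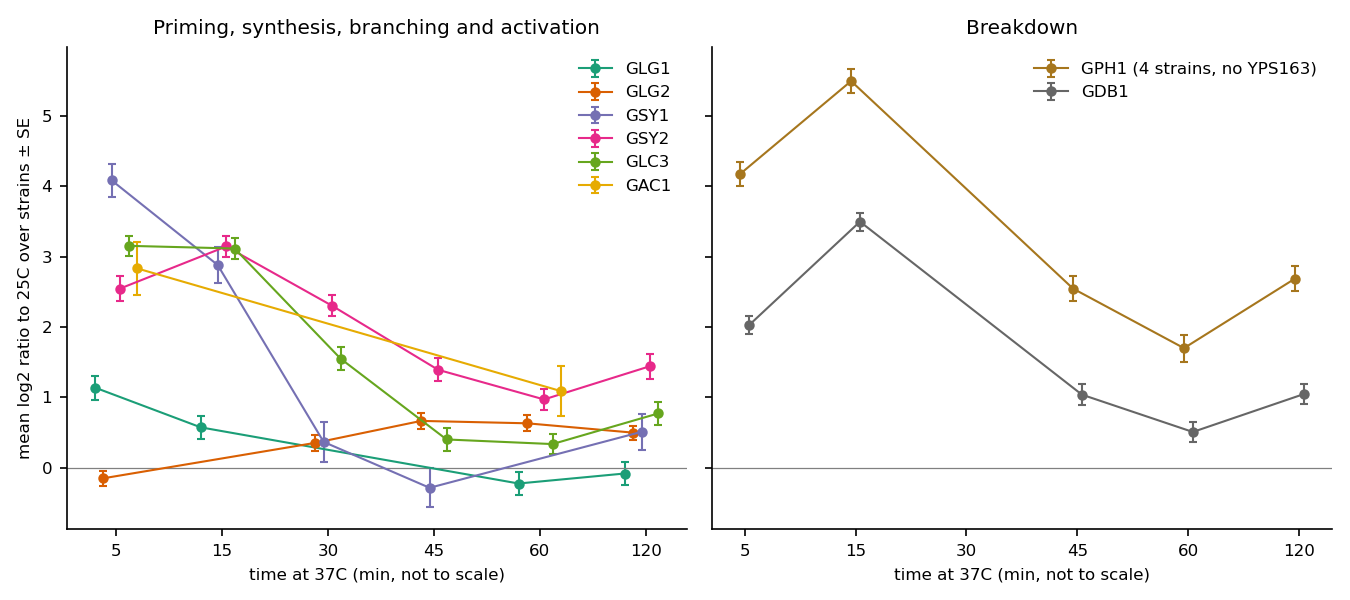
Mean log2 ratio to 25C over the strains (vertical axis; fitted values, bars are SE) against time at 37C in min (not to scale), with genes of priming, synthesis, branching and activation on the left and of breakdown on the right; GPH1 is averaged over 4 strains, the rest over 5, and a time without a value in every strain has no point. GSY1 goes from 4.08 at 5 min to −0.29 at 45 min, and at 120 min it was above 0 on 7 of 9 arrays. GPH1 reaches 5.49 at 15 min and is at 2.69 at 120 min.

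The change between times was tested on the means of the 5 strains. From 5 to 15 min GDB1 rose by a further 1.47 (SE 0.18, adjusted p = 5.35e-07) and GSY2 by 0.60 (SE 0.23, adjusted p = 0.0393), GSY1 fell by 1.20 (SE 0.34, adjusted p = 0.00648), and GLC3 changed by −0.04 (adjusted p = 0.902) and GLG1 by −0.57 (adjusted p = 0.0619). So 2 of 5 members tested were called higher, where 20.3% of all genes were, and 1 was called lower, where 21.5% were. In the 4 strains GPH1 rose by 1.32 (SE 0.24, adjusted p = 0.00022). The GSY2 call was lost without either series of DBY8268 or of M22.

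The members tested on the 5 strains fell after 15 min. GLG2 and GAC1 had no value in M22 at 15 min, so neither could be tested from that time. From 15 to 30 min all 3 tested members were called lower against 14.9% of all genes, GSY1 by −2.51 (SE 0.38), GLC3 by −1.57 (SE 0.21) and GSY2 by −0.84 (SE 0.21, adjusted p = 0.00165). From 15 to 60 min 4 of 4 were called lower (29% of all genes), from −2.99 for GDB1 to −0.80 for GLG1. From 15 to 120 min 5 of 5 were called lower (25.6% of all genes), with GDB1 at −2.45, GSY1 at −2.37, GLC3 at −2.34, GSY2 at −1.70 and GLG1 at −0.66 (adjusted p = 0.0223, and 0.0611 without series 1 of DBY8268). GPH1 fell by 3.80 from 15 to 60 min (SE 0.26) and by 2.81 from 15 to 120 min (SE 0.24) in the 4 strains. In these strains 1 of 5 members tested from 15 to 30 min was not called, and 1 of 6 from 15 to 120 min. The rest were called lower.

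The plotted means of GPH1, GDB1, GSY2 and GLC3 were higher at 120 min than at 60 min, and this step was tested after seeing the data. None of 5 members passed (limma, 2 of 5 at an unadjusted p under 0.05, 1.85% of all genes called higher), with GDB1 at 0.54 (SE 0.20, adjusted p = 0.208), GSY2 at 0.47 (adjusted p = 0.436) and GLC3 at 0.44 (adjusted p = 0.428). In the 4 strains none of 7 passed either (3 of 7 unadjusted, 1.4% of all genes). GPH1 came nearest with 0.99 (SE 0.26, adjusted p = 0.0595), and with the series as a replicate block it was called at 0.90 (adjusted p = 0.0134).

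Members were compared with each other on the same arrays, since the paired genes share every array. GPH1 exceeded GDB1 on 7 of 7 arrays at 15 min, by a difference of log2 ratios of 2.09 (SD 0.46, n = 7 arrays of 4 strains, exact sign-flip permutation test, two-sided p = 0.0156, adjusted p = 0.0417 over 8 tests). It exceeded GSY2 on 7 of 7 arrays by 2.43 (SD 0.71, exact adjusted p = 0.0417). At 120 min GPH1 exceeded GDB1 on 5 of 5 arrays by 1.59, where 5 arrays allow no p below 0.0625 (exact adjusted p = 0.0833), and GSY2 on 5 of 7 arrays by 1.19 (exact adjusted p = 0.0833). GLG1 and GLG2 did not differ by the test at 15 min (difference 0.13, exact adjusted p = 0.562), and at 120 min GLG1 was below GLG2 on 7 of 7 arrays by −0.72 (SD 0.44, exact adjusted p = 0.0417). GSY1 minus GSY2 was −0.29 at 15 min (n = 9, exact adjusted p = 0.29) and −0.69 at 120 min (n = 7, exact adjusted p = 0.0625). Arrays of one strain share their strain, and with the strain means as the units none of the 3 calls held (exact adjusted p = 0.2 each), a design in which 4 or 5 strains cannot reach the threshold.

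Each strain showed the response by itself. Of the pairs of member and strain with a value, 31 of 39 were called higher at 5 min, 28 of 36 at 15 min, 22 of 35 at 30 min, 11 of 36 at 45 min, 10 of 38 at 60 min and 13 of 38 at 120 min, and none was called lower. Over all genes, 17.6%, 25.8%, 21.1%, 12.8%, 9.66% and 11.5% of such pairs were called higher at these times. With the replicate block the count at 120 min was 20 of 35 pairs, against 17% of all pairs, and GLG2 in K9 at 5 min (−0.69, adjusted p = 0.00245) and GSY1 in DBY8268 at 45 min (−1.06, adjusted p = 0.0476) were called lower. The error of the block fit leaves out the lasting gap between the series of a strain, so these calls can be too many. GSY1, GSY2, GLC3 and GDB1 were called in all 5 strains at both 5 and 15 min, and GPH1 in all 4 strains that measured it.

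Differences between strains were called in few members, and over the 5 strains their shares were near or below those of all genes. The F test over 5 strains called GLC3 at 30 min (adjusted p = 0.00236) and GDB1 at 45 min (adjusted p = 0.00488), 1 of 4 members tested at 30 min and 1 of 5 at 45 min, where 33.5% and 19.4% of all genes were called. It called none of 7 members at 5 min (limma, 2 at an unadjusted p under 0.05), none of 5 at 15 min (1 unadjusted), none of 6 at 60 min (1 unadjusted) and none of 6 at 120 min (0 unadjusted), where 7.59%, 23.2%, 19.9% and 15.6% of all genes were called. Over the 4 strains without YPS163 it called GPH1 at 5 min (adjusted p = 0.00415), GSY1, GLC3 and GDB1 at 30 min (0.0357, 0.00451 and 7.93e-05) and GPH1 and GDB1 at 45 min (0.000188 and 0.00398). That was 1 of 8, 3 of 6 and 2 of 7 members, against 7.07%, 28.6% and 12.1% of all genes. At 15 min (0 of 6 members, 1 unadjusted), 60 min (0 of 7, 1 unadjusted) and 120 min (0 of 8, 0 unadjusted) it called none, against 18.2%, 13.5% and 9.65% of all genes.

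The highest values of several members at 30 and 45 min were those of K9. At 30 min GDB1 read 4.46 and 3.99 in K9, against 2.80 and 3.00 in DBY8268, 1.70 in M22 and 1.62 and 1.69 in RM11-1a. GLC3 read 3.52 and 2.53 in K9, against 1.62 and 1.75 in DBY8268, 1.24 in M22, 0.59 and 1.23 in RM11-1a and 0.65 and 1.02 in YPS163. GSY1 read 2.34 and 2.27 in K9, against 0.11 and 0.09 in DBY8268, 0.30 in M22, −0.23 and −1.05 in RM11-1a and 0.46 in YPS163. In all 3 genes both K9 arrays lay above every other array with a value, and GDB1 had no value in YPS163. How many of all genes set K9 apart in this way was not counted. GPH1 was at 6.01 on the only K9 array with a value, above DBY8268 (4.49 and 4.42), YPS163 (4.23) and M22 (3.10 and 2.91).

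Set against DBY8268, M22 and RM11-1a together, a comparison added after seeing the data, K9 was higher at 30 min in GDB1 by 2.21 (SE 0.32, adjusted p = 0.000138), GSY1 by 2.23 (SE 0.63, adjusted p = 0.0353) and GLC3 by 1.76 (SE 0.39, adjusted p = 0.00543). Of all genes 3.41% were called higher in this comparison. GSY2 (0.96, adjusted p = 0.158) and GLG2 (0.49, adjusted p = 0.329) did not pass. At 45 min GPH1 was at 4.99 in K9, on 1 array, against 0.61 to 2.55 on the 6 arrays of the other strains, a difference of 3.37 (SE 0.48, adjusted p = 0.00043). GDB1 was at 2.59 in K9, also on 1 array, against 0.06 to 0.94 elsewhere, a difference of 2.13 (SE 0.41, adjusted p = 0.00424), and 2.4% of all genes were called higher in K9 at 45 min. Both of these errors take the lone K9 array to vary like the other groups, so they hold no spread between K9 replicates, and the comparison was chosen because K9 stood high. At 60 min the difference was 0.70 for GPH1 (adjusted p = 0.532) and −0.78 for GLC3 (adjusted p = 0.302), and neither passed.

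**Figure D3:**
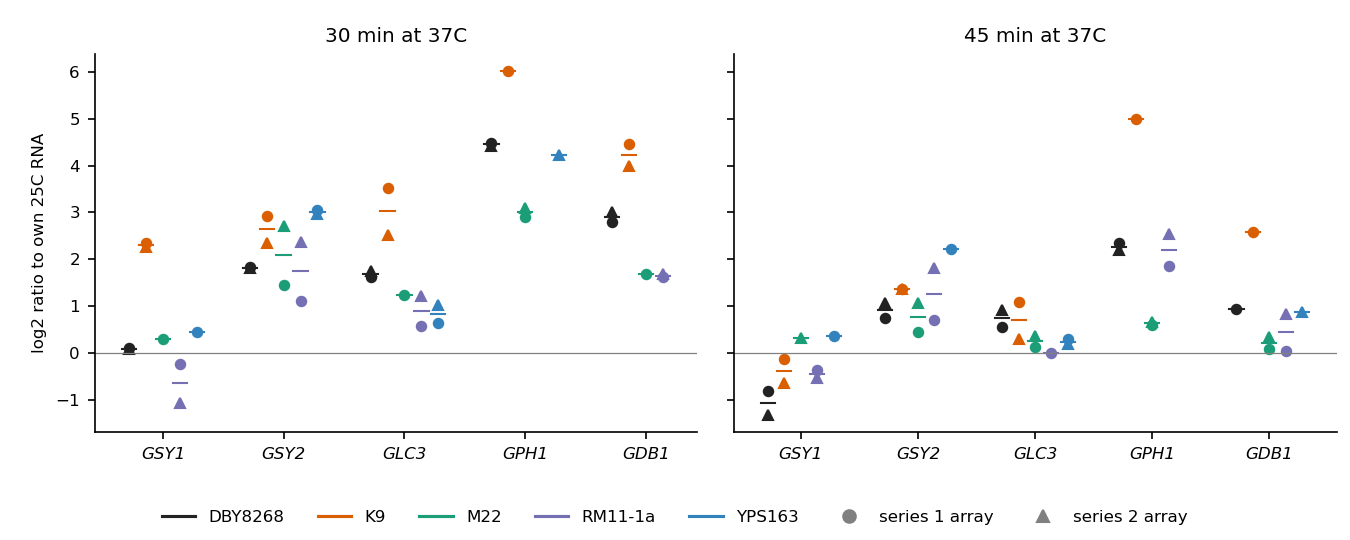
Log2 ratio to the same strain's 25C RNA (vertical axis) of 5 genes at 30 min (left) and 45 min (right), with 1 colour per strain; circles are series 1, triangles series 2, and bars are the mean of the arrays of a strain. At 30 min the K9 points of GSY1, GLC3, GPH1 and GDB1 lie above those of the other strains with a value, and at 45 min those of GPH1 and GDB1 do.

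These K9 calls rest on few arrays. Without series 1 of K9 the GLC3 difference was 1.27 (adjusted p = 0.202) and its F test had an adjusted p of 0.0914, and GSY1 lost its call without either series of K9, DBY8268 or RM11-1a, with adjusted p up to 0.237, or with the arrays of a time scaled to one spread (0.0714) or without the 3 arrays of another 25C reference (0.06). With each time fitted alone the differences of GLC3 at 30 min and GDB1 at 45 min had an adjusted p of 0.0529 and 0.0893. The GDB1 difference at 30 min held without K9 series 1 at 1.98 (adjusted p = 0.0137). Array codes at 30 min had the same prefix in K9, DBY8268, M22 and RM11-1a, while at 45 min K9 differed from all 3, so that at that time prefix and strain cannot be told apart. With the prefix as a covariate, whose effect then comes from other times, the 45 min difference was 1.92 for GDB1 (adjusted p = 0.0755) and 3.59 for GPH1 (adjusted p = 0.019). Without the dye term the K9 differences were 2.14 for GDB1 (adjusted p = 0.000476), 2.38 for GSY1 (0.0381) and 1.75 for GLC3 (0.00663) at 30 min, and 3.29 for GPH1 (0.000731) and 2.06 for GDB1 (0.0106) at 45 min.

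Each strain was also set against the mean of the other 4. None of 35 pairs of member and strain was called at 5 min (limma, 6 at an unadjusted p under 0.05), 1 of 25 at 15 min, 2 of 20 at 30 min, 2 of 25 at 45 min, none of 30 at 60 min (3 unadjusted) and none of 30 at 120 min (4 unadjusted). Of all pairs, 2.06%, 6.62%, 9.92%, 5.76%, 5.96% and 4.45% were called in either direction. The called pairs were the M22 values of GDB1 given above, GSY1 and GLC3 of K9 at 30 min (2.13 and 1.88) and GDB1 of K9 at 45 min (2.08). At 5 min GPH1 read 5.27 and 5.99 in RM11-1a, 4.80 and 4.12 in DBY8268, 3.48 in K9 and 2.90 and 3.19 in M22, so that RM11-1a was highest and M22 lowest. Its F test at that time was lost without either M22 array (adjusted p = 0.101 and 0.0964) and with that time fitted alone (0.191).

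With the series of each strain as a replicate block in place of the dye, more members were called as differing between strains. The block takes the lasting gap between the 2 series of a strain out of the error. Its p-values for a strain, or between strains, thus leave out that spread and can be too small. The F test over 5 strains then called GLG2 (adjusted p = 0.013) and GSY2 (0.026) at 5 min, GDB1 at 15 min (0.0327), GSY1 (0.00107) and GSY2 (0.00218) besides GLC3 at 30 min, GLG2 (0.0044) and GLC3 (0.0485) at 60 min, and GSY2 at 120 min (0.00866). The same fit called 24.3%, 44.6%, 53.6%, 36.3%, 40.7% and 32.5% of all genes in order of time. For GSY2 the block gave YPS163 above the other 4 strains at 30 min by 0.93 (SE 0.22, adjusted p = 0.00661), from 3.05 and 2.96 in YPS163 against 1.12 to 2.92 elsewhere. It also gave M22 above the others at 120 min by 1.14 (SE 0.24, adjusted p = 0.00149), from 2.31 and 2.11 in M22 against 0.79 to 1.80 elsewhere. Neither passed with the dye term (adjusted p = 0.152 each). With the block, a strain's mean at a time cannot be estimated where a gene lacks 1 series of that strain, as GPH1 does in K9. Its change between times can still be estimated.

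Before heat GLC3 lay above and GSY2 below DBY8268 in all 4 strains, although GSY2 was not called in K9. At 25C GLC3 was above DBY8268 on 8 of 8 arrays, with 0.90 and 1.71 in K9, 1.05 and 0.63 in M22, 1.13 and 0.88 in RM11-1a, and 0.76 and 1.18 in YPS163. GSY2 was below DBY8268 on 8 of 8 arrays, with −0.61 and −0.31 in K9, −2.18 and −0.99 in M22, −1.03 and −1.24 in RM11-1a, and −1.32 and −0.87 in YPS163. The means of the 4 strains were 1.03 for GLC3 (SE 0.12, adjusted p = 0.000709) and −1.07 for GSY2 (SE 0.12, adjusted p = 0.000616), the 2 called of 6 members tested, where 39.6% of all genes were called in either direction. On this mean the members were thus called no more often than all genes. The F test between the 4 strains called neither GLC3 (adjusted p = 0.687) nor GSY2 (adjusted p = 0.195). All 4 ratios share DBY8268, so they are not 4 independent observations of a difference from it.

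GSY1 split the strains at 25C. It read 0.42 and 0.95 in K9, 0.62 and 0.60 in RM11-1a, −0.43 and −0.52 in YPS163, and −1.15 and −1.22 in M22. The 4 arrays of K9 and RM11-1a were thus above 0, the 4 of YPS163 and M22 below. The F test between the 4 strains called GSY1 (adjusted p = 0.00877) and no other of the 6 members, against 9.76% of all genes, while the mean over strains was −0.09 (adjusted p = 0.413).

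By strain, 11 of the 27 pairs of member and strain were called at 25C. K9 had GLC3 (1.31, adjusted p = 0.0136) and GSY1 (0.69, adjusted p = 0.0397), with 13.2% of all genes called in either direction. M22 had GSY1 (−1.19, adjusted p = 0.00433), GSY2 (−1.59, adjusted p = 0.00527) and GLC3 (0.84, adjusted p = 0.0439), with 22% of all genes. RM11-1a had GSY2 (−1.14, adjusted p = 0.0208), GLC3 (1.01, adjusted p = 0.0325), GLG1 (0.69, adjusted p = 0.0362, arrays at 0.64 and 0.73) and GPH1 (−0.78, adjusted p = 0.0406, and 0.405 without the dye term, arrays at −1.30 and −0.25), with 13.8% of all genes. YPS163 had GSY2 (−1.10, adjusted p = 0.0205) and GLC3 (0.97, adjusted p = 0.0302), with 19.2% of all genes. GDB1 and GLG2 were called in no strain, with arrays between −0.62 and 0.53. Leaving out any 1 of the 8 arrays left 6 to 8 called pairs, and GLC3 lost its call in each strain without at least 1 array of that strain (adjusted p = 0.0705 to 0.412), while the called means of GLC3 and GSY2 held in each such repeat. The calls of GLG1 and GPH1 in RM11-1a and of GSY2 in YPS163 were lost without either array of their strain, and so was that of GSY1 in K9 (adjusted p = 0.106 and 0.64). Each of these apart from GSY2 in YPS163 was also lost without some array of another strain. GSY2 was lost in M22 without array 1 (0.0698) and in RM11-1a without array 2 (0.194), and GSY1 in M22 without array 2 (0.0591).

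**Figure D4:**
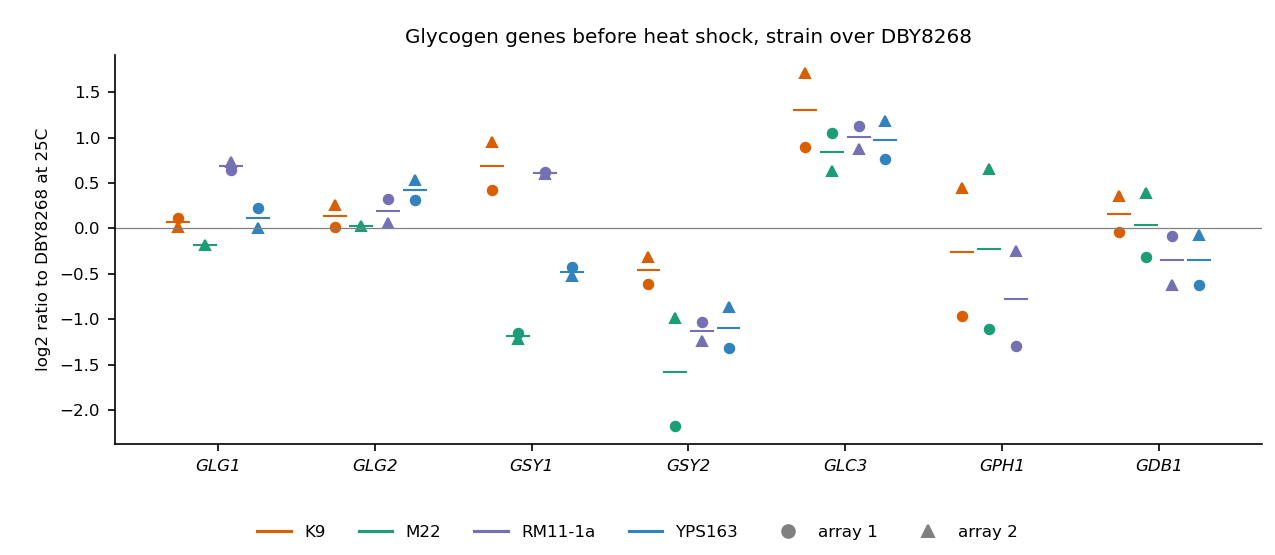
Log2 ratio of each strain to DBY8268 at 25C (vertical axis) for the 7 genes with values, with 1 colour per strain, circles and triangles for its 2 arrays and bars for their mean. All 8 points of GLC3 lie above 0 and all 8 of GSY2 below, and those of GSY1 lie on both sides by strain.

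Since every response is a ratio to 25C RNA of the same strain, the level after heat was set against DBY8268 by adding the 25C ratio to the difference of the responses. Of the pairs of member and strain, 1 of 27 was called at 5 min, none of 26 at 15 min (limma, 2 at an unadjusted p under 0.05), 4 of 24 at 30 min, 2 of 26 at 45 min, none of 26 at 60 min (1 unadjusted) and none of 27 at 120 min (0 unadjusted). Of all such pairs 9.55%, 9.6%, 10%, 6.65%, 7.43% and 8.08% were called in either direction. At 15 min the GSY2 level against DBY8268 was 0.50 in K9 (SE 0.57), −0.10 in YPS163, −0.53 in RM11-1a and −0.94 in M22 (SE 0.56 each), and that of GLC3 was 1.53 in K9 (SE 0.55, adjusted p = 0.077) and 0.35 to 1.04 in the others. The wide errors of this sum do not show that levels were alike. The called levels at 30 min were GLC3 (2.68, SE 0.55, adjusted p = 0.000996), GSY1 (2.71, SE 0.86, adjusted p = 0.0435) and GDB1 (1.60, SE 0.45, adjusted p = 0.023) in K9 and GDB1 in RM11-1a (−1.59, adjusted p = 0.0269). At 45 min they were GPH1 in K9 (2.64, adjusted p = 0.0299) and GSY2 in M22 (−1.74, adjusted p = 0.0489), and at 5 min GLG1 in YPS163 (1.94, adjusted p = 0.0387). These 3 calls were lost without the dye term (adjusted p = 0.0846, 0.105 and 0.129), as was GDB1 in K9 at 30 min (0.0579), and the GPH1 level rests on 1 K9 array after heat.

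The supply of UDP-glucose and the regulators of synthase and phosphorylase were followed through 18 further genes. At 15 min 8 of 12 tested were called higher and 1 lower, against 39.3% and 37.3% of all genes, with a median of 0.48 where the median of all genes was 0.03. PGM2, the major phosphoglucomutase, which interconverts glucose 1-phosphate and glucose 6-phosphate, rose by 5.72 (SE 0.14, adjusted p = 1.48e-22), while PGM1, its minor isoform, fell by 0.70 (SE 0.07, adjusted p = 1.1e-10). UGP1, which makes UDP-glucose, rose by 1.72 (SE 0.18). PSK1, a PAS kinase, rose by 1.41, and PSK2, its paralogue, was at −0.02 (adjusted p = 0.937).

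Regulators of the phosphorylation state had smaller ratios. GLC8, a regulatory protein of the phosphatase Glc7, rose by 1.40 at 15 min (SE 0.17) and the Pho85 cyclin genes PCL7 and PCL8 by 0.79 and 0.61. SNF4 (0.36) and SNF1 (0.24), of the glucose-repression kinase, passed as well. GLC7 itself was at 0.12 (adjusted p = 0.364) and PHO85, the kinase that phosphorylates the synthase with such cyclins, at −0.10 (adjusted p = 0.486), after −0.70 at 5 min (adjusted p = 9.74e-06). PIG2, a putative targeting subunit of Glc7, rose by 1.02 at 5 min (SE 0.11).

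At 120 min 5 of 14 of these genes were called higher and 3 lower, against 31% and 17.9% of all genes. PGM2 was still at 1.93 (SE 0.14) and PCL7 at 0.59, PSK1 at 0.56, PCL10 at 0.43 and PCL8 at 0.30. GLC7 was at −0.68 (SE 0.12, adjusted p = 1.43e-05), PGM1 at −0.44 and SNF1 at −0.28 (adjusted p = 0.0013). GIP2 and SGA1 lacked a value in some strain at every time and were not tested on the means.

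**Figure D5:**
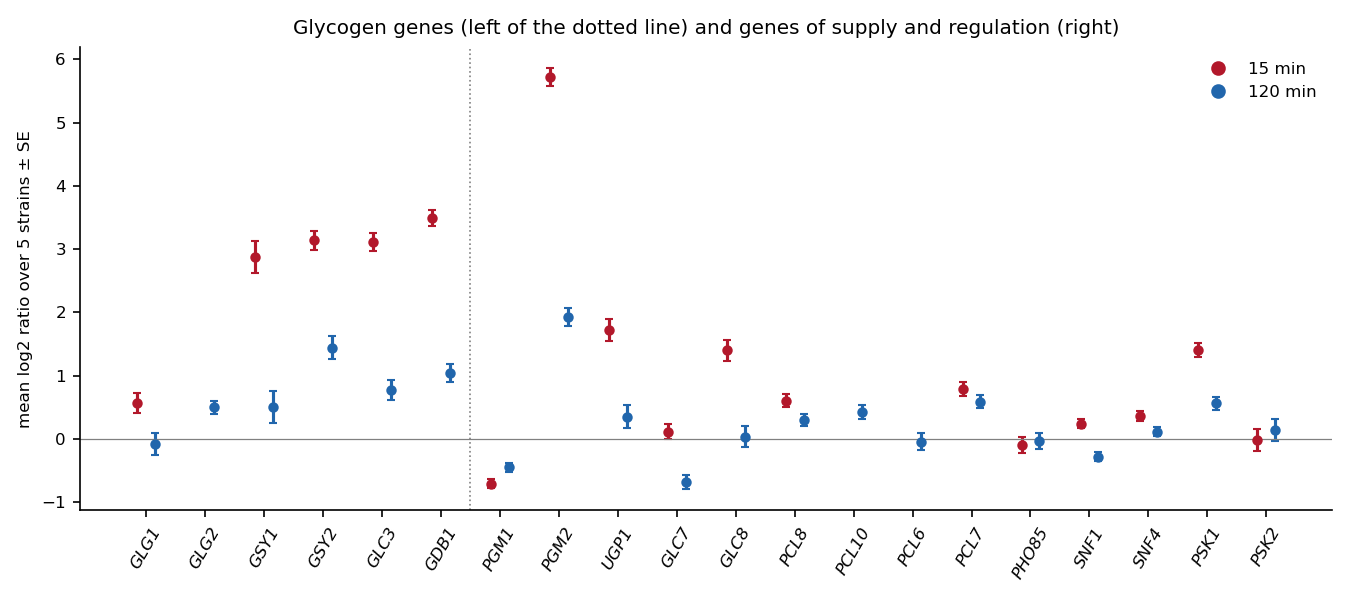
Mean log2 ratio to 25C over the 5 strains (vertical axis; bars are SE) at 15 min (red) and 120 min (blue) for the glycogen genes tested (left of the dotted line) and the genes of supply and regulation (right); a gene without a value in every strain at a time has no point there. PGM2 stands at 5.72 at 15 min, and PGM1 and GLC7 are below 0 at 120 min.

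Several members had courses that resembled each other across the strain and time groups. Over the groups with both genes, which share arrays, reference RNA and time, Pearson's r was 0.91 for GPH1 with GDB1 (23 groups), 0.91 for GSY1 with GLC3 (29 groups), 0.81 for GLC3 with GDB1 (29 groups) and 0.79 for GSY2 with GLC3 (30 groups). The coefficients were lower for GLG1 with GPH1 (0.23, 23 groups) and GDB1 (0.29, 28 groups) and for GAC1 with GPH1 (0.38, 21 groups) and GDB1 (0.39, 22 groups). GLG2 had r between −0.30 and −0.54 with each of the other 7, and with its paralogue GLG1 it was −0.52 (27 groups). Among 4348 other genes with all 30 group means, the courses most like the mean of GSY2 and GLC3 were those of HXK1 (YFR053C, hexokinase, r = 0.94), LSP1 (YPL004C, an eisosome component, 0.94), HSP104 (YLL026W, a disaggregase, 0.93), TPS2 (YDR074W, trehalose phosphatase, 0.93) and PNS1 (YOR161C, 0.93). These coefficients are descriptions over groups that follow the same 6 times.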

How the data were processed

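RNA of 5 yeast strains was compared on 68 microarrays of 2 colours, labelled through amino-allyl nucleotides with cyanine dyes, per the labels' protocols. The deposited values are the authors' log ratios, 1 per open reading frame and array, read here as log2. No label or header used here states the log base, normalization, centring, array platform or genome build, and fold values rest on base 2. The direction was set by LEU2, URA3 and ASP3 at 25C, and values were used as deposited. Array medians were −0.17 to 0.28 in the time courses and −0.09 to 0.03 at 25C.

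Groups came from the labels, which spell RM11-1a also RM11a. No label says whether the replicates are separate cultures, and p-values then cover only the spread among these arrays, possibly a technical one. The labels give 3 arrays another 25C reference than the rest of their series, and call a YPS163 array at 60 min a technical repeat. Symbols come from the RefSeq table of assembly R64, used for names only, which matched 5832 reading frames and all 8 members.

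Each gene was fitted by least squares, with limma 3.58.1 (squeezeVar, R 4.3.3) for moderation: 30 group means and a dye term over 60 arrays, 4 strain means and a dye term over the 8 arrays at 25C, and a joint fit for levels. A gene was tested where each group used had a value. The number of arrays limits the precision, and the moderated SD had a median of 0.323 over the 60 arrays and of 0.246 over the 8. The script was tested on simulated data. Exact sign-flip tests used scipy 1.17.1. Arrays of a series share a 25C reference label, so the labels pair them, and deviations within a series correlated across times with median r of 0.281 in M22 to 0.466 in RM11-1a (15 pairs of times per strain, lowest 0.0487). The series was therefore tried as a replicate block, which takes the lasting gap between series out of the error of the strain means.

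The 8 members were named whatever their result, together with 18 genes of the pathway and the 5 genes most like GSY2 and GLC3. Members and lists were chosen with earlier results of these data known. Alternatives were no dye term, centring, scaling, stricter filters, an array prefix covariate, each time alone, the replicate block, leaving out the 3 arrays with another reference, and leaving out each replicate. The comparisons over 4 strains, K9 against 3 strains and 60 to 120 min were chosen after seeing the data. No sequence is shown.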

Additional observations from a re-analysis of the deposited data

Results flagged for a closer look

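The following results were picked out because the test of the difference between strains itself passed. Over 5 strains these were GLC3 at 30 min (adjusted p = 0.00236), where K9 was highest at 3.52 and 2.53, and GDB1 at 45 min (adjusted p = 0.00488), where K9 was highest at 2.59 on 1 array. Over the 4 strains without YPS163 they were GPH1 at 5 min (adjusted p = 0.00415), with RM11-1a highest and M22 lowest. At 30 min they were GSY1 (adjusted p = 0.0357), GLC3 (adjusted p = 0.00451) and GDB1 (adjusted p = 7.93e-05), and at 45 min GPH1 (adjusted p = 0.000188) and GDB1 (adjusted p = 0.00398), with K9 highest in each. The F test of GSY1 lost its call without either series of DBY8268, K9 or RM11-1a, or series 2 of M22 (adjusted p = 0.054 to 0.21). At 25C GSY1 differed between the 4 strains set against DBY8268 (adjusted p = 0.00877), with K9 and RM11-1a above 0 and M22 and YPS163 below.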

How the results depend on the processing

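For single genes, 11344 of 11851 comparisons of a result with an alternative kept their side of the threshold, 304 lost a call and 203 gained one. The 11851 pool called with uncalled results and leave out alternatives that could not estimate the gene. They thus do not give the share of calls that held. No result called in either of the fits compared changed sign. A change of sign where neither fit called the gene was not counted as a change. Stricter filters test fewer members by construction. Members needing a value in all 30 groups gave 2 called on the mean of 5 strains at 5, 15, 45 and 120 min and 1 at 60 min, 10, 10, 10, 3, 4 and 5 called pairs by strain in order of time, 0 strain differences at 45 min, 0, 1 and 0 pairs against the other 4 strains at 15, 30 and 45 min, and 1, 2 and 2 changes from 5 to 15, 15 to 60 and 15 to 120 min. Needing both values in every group gave 2 at 5 and 15 min and 1 at 30, 60 and 120 min, 0 strain differences at 30 min, 0 pairs against the other 4 at 15 and 30 min, and 0, 1 and 2 changes from 5 to 15, 15 to 30 and 15 to 60 min. The array prefix as a covariate gave 2 at 45 and 60 min, 6 pairs by strain at 45 min, 0, 1 and 0 pairs against the other 4 at 15, 30 and 45 min and 1 change from 5 to 15 min. Without the dye term there were 6 pairs by strain at 60 min, 2 strain differences at 30 min, 0 and 1 pairs against the other 4 at 15 and 45 min, and 0 called levels against DBY8268 at 5 and 45 min. The replicate block gave 20 pairs by strain at 120 min, 2, 1, 3, 2 and 1 strain differences at 5, 15, 30, 60 and 120 min, 2, 2, 6, 3 and 1 pairs against the other 4 at these times, and 4, 2, 7, 2 and 1 called levels. Among single genes and strains the block added calls and lost 1, K9 GLG1 at 15 min (adjusted p = 0.0542), and it moved no other count of calls by over 1.5 times. Scaling the arrays of a time gave 1 and 2 strain differences at 15 and 30 min and 2 pairs against the other 4 at 15 min. Each time fitted alone gave 0 strain differences at 45 min and 0 pairs against the other 4 at 15 and 45 min. Centring gave 0 such pairs at 15 min and 2 called levels at 30 min. Without the 3 arrays of another reference such pairs were 0, 1 and 1 at 15, 30 and 45 min. Over 4 strains 1, 3 and 2 members differed at 5, 30 and 45 min. With strain means as units GLG1 minus GLG2 was −0.66, GPH1 minus GDB1 2.07 and GPH1 minus GSY2 2.41 (exact adjusted p = 0.2 each). The cause of these moves was not tested beyond the number of genes or samples.

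Leaving out 1 replicate at a time gave, in order of time, 3 to 6, 3 to 5, 1 to 4, 2 to 4, 3 to 5 and 2 to 5 called members on the mean of 5 strains, 28 to 33, 25 to 28, 17 to 23, 7 to 14, 5 to 12 and 10 to 16 pairs by strain, 0 to 1, 0 to 1, 0 to 3, 0 to 1, 0 to 0 and 0 to 0 strain differences, and 0 to 1, 0 to 2, 0 to 3, 0 to 2, 0 to 0 and 0 to 1 pairs against the other 4. Changes were 1 to 4 (5 to 15 min), 1 to 3 (15 to 30 min), 2 to 4 (15 to 60 min), 2 to 5 (15 to 120 min) and 0 to 0 (60 to 120 min). At 25C it gave 6 to 8 pairs, 2 to 3 on the mean and 1 to 1 between strains.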

Other observations

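At 25C the supply and regulator genes were also set against DBY8268. PGM2 was above it in K9 by 1.30 (SE 0.18, adjusted p = 0.00892) and in RM11-1a by 0.94 (adjusted p = 0.0246), and over the mean of the 4 strains it was at 0.49 (adjusted p = 0.0153). GLC8 was lower over the 4 strains by −0.94 (SE 0.16, adjusted p = 0.00425), with −1.55 in M22 (adjusted p = 0.0173). PIG1, a putative targeting subunit of the phosphatase Glc7, was at −0.49, PCL7 at −0.43 and PCL6 at −0.37, so that 1 of 15 tested genes was called higher and 4 lower at 25C, against 18.3% and 21.3% of all genes.

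In the heat response the F test over 5 strains called PGM2 at 30 min (adjusted p = 0.000214) and 120 min (0.0451), PGM1 at 45, 60 and 120 min (0.00913, 0.0218 and 0.00146), PCL7 at 15 and 30 min (0.0078 and 0.0489), GLC8 at 30 min (0.01) and SNF1 at 30 min (0.0253). That was 1 of 12 tested genes at 15 min, 4 of 14 at 30 min, 1 of 14 at 45 min, 1 of 16 at 60 min and 2 of 14 at 120 min, against 23.2%, 33.5%, 19.4%, 19.9% and 15.6% of all genes, each share below that of all genes.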
